A study of Mus musculus with 12 samples.

Results

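The 10 genes followed here, Fos, Fosb, Fosl1, Jun, Junb, Egr1, Egr2, Nr4a1, Atf3 and Zfp36, belong to the immediate early response, the first wave of transcription after a cell is stimulated or stressed. They were taken by name, as every probe set whose only gene symbol in the platform annotation was one of the 10, which gave 15 probe sets among the 12422 of the array that are not controls. Of these, 13 passed the filter on dim probe sets and were tested, at least 1 for each of the 10 genes. The 2 left out were 161802_i_at of Egr1 and 161645_r_at of Atf3. The other 9 genes code for transcription factors. Zfp36 codes for tristetraprolin, an RNA-binding protein that speeds the decay of messages with AU-rich elements, so the label of transcription factors does not hold for it.

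The study compared isolated adipocytes of subcutaneous (flank) fat, isolated adipocytes of intraabdominal (epididymal) fat, plated stromo-vascular cells of subcutaneous fat and plated stromo-vascular cells of intraabdominal fat, with 3 arrays a group. All came from male C57BL/6 mice, an inbred laboratory strain, aged 42 to 49 days and given no treatment or transgene in the labels. Each depot's tissue was pooled over 10 mice and treated for 45 min with collagenase (1 mg/ml). The adipocytes that floated went straight to RNA extraction, while the stromo-vascular pellet, a mixture of preadipocytes, fibroblasts, vessel and immune cells, was freed of red cells and cultured for 16 h in medium with serum. Fraction therefore cannot be told apart from culture, from lysis of red cells and from the time since digestion. In such mixed samples, fewer cells of a type and less RNA per cell cannot be told apart either.

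Immediate early genes need no new protein synthesis to be switched on: kinases of the MAP kinase and cyclic AMP pathways activate factors already bound at their promoters, such as serum response factor with its ternary complex partners at CArG boxes and CREB at cyclic AMP response elements. Their messages are usually short-lived, and many of their products pair up, as Fos proteins do with Jun proteins to form AP-1. In fat, AP-1, Egr and Nr4a factors have been studied in preadipocyte growth and differentiation, and the same genes are known to respond to enzymatic dissociation of tissues.

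Upstream sequences of 5 of the genes are shown as examples of members high in adipocytes of both depots (Fos, Fosb, Zfp36, Egr2) or with fraction differences of opposite sign (Nr4a1). Jun, Junb and Atf3 were also high in adipocytes of both depots and had windows, but their sequences are not shown. The window of Jun held none of the motifs named below. RefSeq promoter windows of the mouse build GRCm38.p6, from 250 bases before to 50 after the start site, were at hand for 8 of the 10 genes, in 12 windows. The 150 bases just before the start site are given 5′ to 3′ on the strand of the gene, at chr12:85473740-85473889 (plus strand), chr7:19310046-19310195 (minus), chr7:28379229-28379378 (minus), chr10:67537719-67537868 (plus, 1 of 5 windows of the gene, 3 of which overlap) and chr15:101266696-101266845 (plus). Capitals mark matches to the motifs named after the sequences, on either strand.
Fos: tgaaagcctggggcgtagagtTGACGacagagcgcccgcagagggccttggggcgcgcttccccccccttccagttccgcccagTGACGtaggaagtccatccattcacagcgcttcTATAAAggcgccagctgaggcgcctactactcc
Fosb: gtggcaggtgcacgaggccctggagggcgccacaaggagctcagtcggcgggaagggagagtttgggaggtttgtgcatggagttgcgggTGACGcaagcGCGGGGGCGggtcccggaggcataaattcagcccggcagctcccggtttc
Zfp36: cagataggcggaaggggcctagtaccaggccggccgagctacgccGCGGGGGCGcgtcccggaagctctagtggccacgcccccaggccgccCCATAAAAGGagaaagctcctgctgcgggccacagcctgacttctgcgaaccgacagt
Egr2: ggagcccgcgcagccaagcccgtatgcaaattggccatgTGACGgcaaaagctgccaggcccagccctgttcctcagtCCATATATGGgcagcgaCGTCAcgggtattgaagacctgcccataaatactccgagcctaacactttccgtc
Nr4a1: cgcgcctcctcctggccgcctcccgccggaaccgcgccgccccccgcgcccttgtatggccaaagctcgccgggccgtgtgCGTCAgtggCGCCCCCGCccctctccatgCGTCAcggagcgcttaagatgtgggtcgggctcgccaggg

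Of the 12 windows, 5 belong to Egr2. The short core of the cyclic AMP response element, TGACG, was found for 6 of the 8 genes (Fos, Fosb, Junb, Egr2, Nr4a1 and Atf3). By window it was in 8 of the 12, against 20.8% of all 32851 windows. In Fos it lay at -129 to -125 and at -66 to -62 from the start site, followed by TATAAA at -33 to -28. The full element TGACGTCA, present in 1.79% of all windows, was in 0 of the 12 windows, and the AP-1 site TGANTCA, present in 7.81%, likewise in 0. A CArG box, which serum response factor binds, was found for 2 genes, Egr2 (-72 to -63) and Zfp36 (-58 to -49). By window it was in 5 of the 12, against 1.63% of all windows. The Egr site GCGNGGGCG was in 3 of the 12 windows, those of Fosb, Nr4a1 and Zfp36, and in 5.55% of all windows. TATAAA was in 2 of the 12 windows, those of Fos and Junb, and in 13.6% of all. These matches describe letters in these windows only. A full element holds the short core on each strand, and TATAAA can lie inside a CArG box, so the motifs can overlap.

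Each value below is a MAS5 signal, a brightness in arbitrary linear units that the authors scaled to a common level on each array, and the levels of different probe sets are not set against each other. Within a group, Pearson's r between arrays, taken over all probe sets, ran from 0.928 to 0.976; probe sets are no independent replicates. The adipocyte label held by its markers: 7 adipocyte genes summed to between 388256 and 539546 on the adipocyte arrays, against 15872 to 28885 on the stromo-vascular arrays. Preadipocyte and fibroblast markers (9 genes) summed to between 31954 and 65427 on the adipocyte arrays, against 177432 to 269040 on the stromo-vascular arrays. Of these 9, 2 were called higher and 6 lower in subcutaneous adipocytes, and 2 and 7 in intraabdominal adipocytes. Dpt averaged 8463 and 5684 in subcutaneous and intraabdominal adipocytes, against 1830 and 167 in stromo-vascular cells. Thy1 averaged 886 and 328, against 35886 and 6638. Blood vessel and red cell markers ran with the adipocytes: 7 endothelial genes summed to between 11959 and 18079 on adipocyte arrays, against 1638 to 3935 on stromo-vascular arrays. The hemoglobin gene Hba-a1 with Alas2 summed to between 17415 and 44340 on adipocyte arrays, against 330 to 888 on stromo-vascular arrays. Macrophage markers (9 genes) summed to between 13731 and 26764 on adipocyte arrays and to between 20955 and 31945 on stromo-vascular arrays. Single macrophage genes went opposite ways: 3 of the 9 were called higher and 4 lower in subcutaneous adipocytes, and 3 and 5 in intraabdominal adipocytes. C1qa averaged 2092 and 1623 in subcutaneous and intraabdominal adipocytes, against 92.3 and 888 in stromo-vascular cells, while Cd68 averaged 1184 and 1070, against 4822 and 5183. The summed signal of 5 smooth muscle markers averaged 32591 in stromo-vascular cells of subcutaneous and 135366 in those of intraabdominal fat. That of 6 mesothelial markers averaged 1083 and 6581. The ratio of actin signal at the 3′ end of the message over its 5′ end, which rises as RNA degrades, averaged 2.85 ± 0.43 in adipocytes of subcutaneous fat and 2.04 ± 0.29 in those of intraabdominal fat, and 1.22 ± 0.02 and 1.17 ± 0.05 in stromo-vascular cells of these depots (SD over 3 arrays each). Adipocyte and stromo-vascular arrays differed in it (exact permutation test over 924 splits, two-sided, p = 0.00216); between the depots' adipocytes p was 0.1, the smallest that 20 splits allow. The part of these other cells and of RNA quality in the results below was not tested, except that the fits with the actin ratio as a covariate are given.

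One array stood apart for these genes. Intraabdominal adipocyte replicate 3 was over 2-fold above both other arrays of its group in 4 of the 13 member probe sets (Fos, Jun, Egr1 and 104155_f_at of Atf3), against 2.35% of all probe sets, and no other array of the 12 did this for any member. It was the highest of its group in 11 of the 13, against 41.3% of all probe sets. Its signal over the mean of the other arrays of its group was 4.99 for Fos, 3.07 for Jun and 2.09 for Egr1, but 0.59 for Fosl1 and 0.923 for Egr2. Heat shock genes moved with it: 6 of 11 tested were over 2-fold above both other arrays, and Hspa1b, Hspa1a and Hsph1, which code for inducible chaperones, had the 3 largest excesses of all named probe sets. Hspa1a read 2116, 1697 and 56066 in intraabdominal adipocyte replicates 1 to 3, beside 22847, 19817 and 32745 in subcutaneous adipocytes and at most 1023 in stromo-vascular cells. No adipocyte, macrophage, endothelial, smooth muscle or erythroid marker was over 2-fold above both other arrays on it; the mesothelial marker Bnc1 and the B cell marker Cd79a were. Results that rest on this array are given with and without it. The array was picked out by its values for these same genes, so p-values without it follow that choice and are no independent test.

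**Figure D1:**
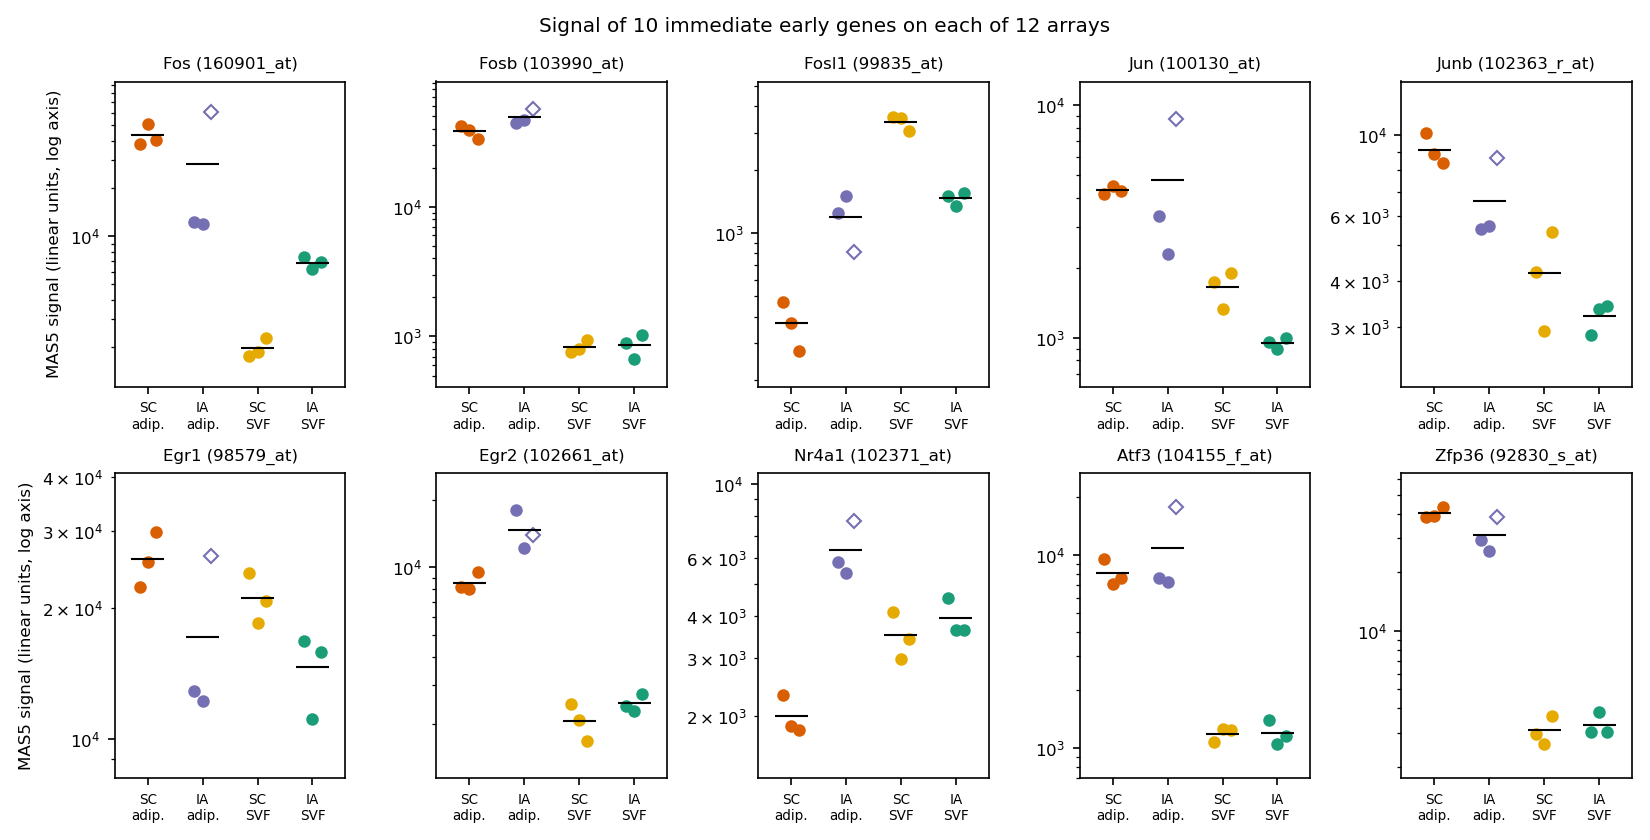
Signal (MAS5 units, log axis) of 1 probe set for each of the 10 genes on each of the 12 arrays, by group (SC, subcutaneous; IA, intraabdominal; adip., adipocytes; SVF, plated stromo-vascular fraction); points are arrays, bars are group means and the open diamond is intraabdominal adipocyte replicate 3. Fosb, Zfp36, Atf3 and Egr2 lie higher in every adipocyte array than in any stromo-vascular array, Fosl1 lies lowest in subcutaneous adipocytes, and the open diamond lies far above its group for Fos and Jun.

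Adipocytes were compared with stromo-vascular cells in each depot to ask how the cell fractions differ. In both depots 7 genes were higher in adipocytes, Fos, Fosb, Jun, Junb, Egr2, Atf3 and Zfp36, with 9 of the 13 tested probe sets, where 17.2% of all were higher in both. Fosb differed most, by 43.5-fold in subcutaneous and 55.1-fold in intraabdominal fat. In subcutaneous fat 9 of the 13 tested probe sets rose, where 23.5% of all 8695 tested did, and 2 fell (Fosl1 and Nr4a1), where 29.4% of all did; in either direction 52.8% of all were called. In intraabdominal fat 10 rose, against 22.4% of all, and 0 fell, against 29% of all; 51.3% were called in either direction. Without intraabdominal adipocyte replicate 3 the intraabdominal count was also 10, where 20.1% of all were higher and 48.5% called. The median log2 difference of the members was 2.03 in subcutaneous and 1.94 in intraabdominal fat, beside -0.04 and -0.11 for all probe sets tested. A call is an adjusted p under 0.05 from limma after Benjamini-Hochberg adjustment over all probe sets tested, and a fold is on the scale of log2 of the signal plus 40.09, which understates changes of dim genes.

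Among the Fos family, which needs a Jun partner to bind DNA, Fosb (103990_at) read 41874, 39159 and 33070 in subcutaneous adipocytes and 43855, 46917 and 56725 in intraabdominal adipocytes. In stromo-vascular cells it read 759, 804 and 938 in subcutaneous and 887, 664 and 1030 in intraabdominal fat. No adipocyte array came near any stromo-vascular array. The log2 differences were 5.44 ± 0.16 and 5.78 ± 0.16 (SE; limma adjusted p = 2.08e-12 and 9.87e-13), which ranked the gene 46 and 39 from the top of 8695 probe sets.

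Fos (160901_at), the prototype of the family, read 38360, 50785 and 40401 in subcutaneous adipocytes, against 1755, 1869 and 2289 in subcutaneous stromo-vascular cells. In intraabdominal adipocytes it read 12310, 12002 and 60694, against 7445, 6193 and 6887 in intraabdominal stromo-vascular cells. The adipocyte arrays were higher in each depot without overlap, but the third intraabdominal array read 4.99 times the mean of the other intraabdominal adipocyte arrays, and their mean over all 3 was 28335 ± 28023 (SD). The fold was 21.5 in subcutaneous fat (limma adjusted p = 6.92e-07) and 3.03 in intraabdominal fat (adjusted p = 0.0061), and in intraabdominal fat it was 1.78 without that array (adjusted p = 0.000525). A dimmer Fos probe set, 161716_at, with signals between 103 and 482, was not called in either depot (log2 difference 0.83, adjusted p = 0.0777, and 0.26, adjusted p = 0.602).

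Fosl1 (Fra-1), a family member that lacks the C-terminal activation domain of Fos, fell in subcutaneous adipocytes. It read 472, 373 and 274 in subcutaneous adipocytes and 1243, 1504 and 810 in intraabdominal adipocytes. The stromo-vascular arrays read 3548, 3502 and 3063 in subcutaneous and 1505, 1345 and 1553 in intraabdominal fat. Every subcutaneous adipocyte array was thus far below every other array, and the intraabdominal fractions overlapped. It fell by 3.07 ± 0.23 on the log2 scale in subcutaneous adipocytes (8.41-fold lower, limma adjusted p = 3.69e-08), while the intraabdominal difference of -0.34, with a 95% interval from -0.83 to 0.15, was not called (adjusted p = 0.236).

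Of the Jun proteins, which bind DNA as dimers with Fos or with each other, Jun (100130_at) read 4142, 4508 and 4279 in subcutaneous adipocytes and 3360, 2303 and 8702 in intraabdominal adipocytes. In stromo-vascular cells it read 1731, 1338 and 1910 in subcutaneous and 959, 897 and 1002 in intraabdominal fat. Both depots' adipocytes were higher without overlap, by 2.58-fold (limma adjusted p = 0.00298) and 4.15-fold (adjusted p = 0.000108). Junb was measured by a pair of probe sets that went the same way. On 102362_i_at it read 10428, 11623 and 10966 in subcutaneous and 5567, 6132 and 10666 in intraabdominal adipocytes, against 2163, 2069 and 2003 in stromo-vascular cells of subcutaneous and 1842, 1750 and 1920 in those of intraabdominal fat. The folds were 5.21 and 3.83 on that probe set and 2.22 and 2.01 on 102363_r_at, whose SD among subcutaneous stromo-vascular arrays was 1263 around a mean of 4202.

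Atf3, a stress-induced bZIP factor of the ATF/CREB family that can pair with Jun proteins, had a pair of bright probe sets. On 104155_f_at it read 9543, 7116 and 7583 in subcutaneous adipocytes and 7594, 7226 and 17776 in intraabdominal adipocytes. The stromo-vascular arrays read 1072, 1252 and 1238 in subcutaneous and 1402, 1043 and 1153 in intraabdominal fat. All 6 adipocyte arrays were above all 6 stromo-vascular arrays, by 6.58-fold in subcutaneous (limma adjusted p = 7.41e-07) and 8.09-fold in intraabdominal fat (adjusted p = 2.38e-07). On 104156_r_at the folds were 4.20 and 5.59. The suffixes _f_at and _s_at (Zfp36) mark probe sets whose probes can match transcripts of more than 1 gene, so these levels may hold signal of related genes. The third probe set, 161645_r_at, stayed between 19.9 and 64.6 and was too dim to test.

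Zfp36 (92830_s_at) read 38310, 38984 and 43221 in subcutaneous adipocytes and 29429, 25725 and 38455 in intraabdominal adipocytes. In stromo-vascular cells it read 2951, 2616 and 3672 in subcutaneous and 3040, 3835 and 3006 in intraabdominal fat. The fractions lay far apart in both depots, 13.0-fold in subcutaneous and 9.30-fold in intraabdominal fat (limma adjusted p = 1.45e-10 and 5.49e-10).

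The zinc finger factors Egr1 and Egr2 bind the same GC-rich site. Egr2 (102661_at) read 8172, 7977 and 9511 in subcutaneous adipocytes and 17955, 12156 and 13900 in intraabdominal adipocytes. The stromo-vascular arrays read 2476, 2087 and 1686 in subcutaneous and 2422, 2306 and 2744 in intraabdominal fat. Adipocytes were above stromo-vascular cells without overlap, by 4.08-fold and 5.75-fold (limma adjusted p = 1.07e-07 and 9.37e-09). Egr1 (98579_at) read 22310, 25516 and 29838 in subcutaneous adipocytes and 12897, 12222 and 26296 in intraabdominal adipocytes. In stromo-vascular cells it read 24033, 18401 and 20699 in subcutaneous and 16791, 11088 and 15866 in intraabdominal fat. Those ranges overlapped, and neither difference was called: 0.30 with a 95% interval from -0.23 to 0.83 in subcutaneous fat (adjusted p = 0.337), and 0.16 with an interval from -0.37 to 0.69 in intraabdominal fat (adjusted p = 0.615). The second Egr1 probe set, 161802_i_at, averaged 38.6 in subcutaneous and 139 in intraabdominal adipocytes, against 179 and 158 in the stromo-vascular cells of the same depots, and was too dim to test.

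Nr4a1 (Nur77), an orphan nuclear receptor, was the gene called in opposite directions. It read 2323, 1866 and 1816 in subcutaneous adipocytes, against 4133, 2971 and 3415 in subcutaneous stromo-vascular cells. It read 5823, 5383 and 7735 in intraabdominal adipocytes, against 4536, 3635 and 3645 in intraabdominal stromo-vascular cells. Neither pair of ranges overlapped: it was 1.73-fold lower in subcutaneous adipocytes (limma adjusted p = 0.00133) and 1.59-fold higher in intraabdominal adipocytes (adjusted p = 0.00467).

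**Figure D2:**
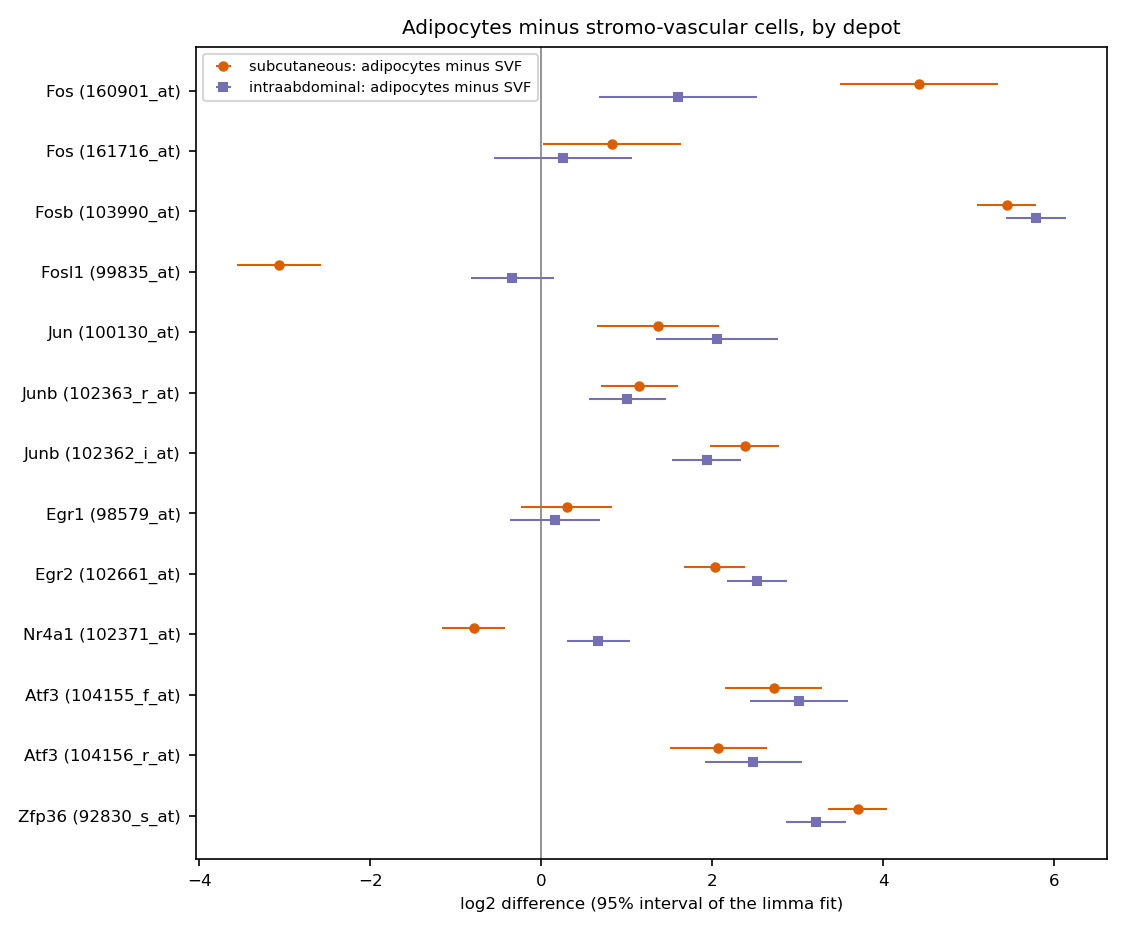
Log2 difference of adipocytes minus stromo-vascular cells for the 13 tested probe sets, with the 95% interval of the limma fit, in subcutaneous (circles) and intraabdominal fat (squares). Fosb lies farthest right in both depots at 5.44 and 5.78, Fosl1 lies at -3.07 in subcutaneous fat and at -0.34 in intraabdominal fat, and the Nr4a1 intervals lie on opposite sides of 0.

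With the actin ratio as a covariate, which runs nearly with fraction, 4 of the 13 probe sets were called in subcutaneous and 6 in intraabdominal fat. Of all 8695 probe sets tested, 1058 and 2173 were called in that fit. Fosb, Egr2 and Zfp36 kept their calls in both depots and Fosl1 in subcutaneous fat; the calls of Fos, Jun, Nr4a1 and Junb on 102363_r_at were lost in both, and in subcutaneous fat those of Atf3 and of Junb on 102362_i_at as well. Standard errors were larger in that fit. In subcutaneous fat Fos was then at 2.84 (SE 1.48), against 4.42 (SE 0.43) without the covariate, and Atf3 on 104155_f_at at 1.79 (SE 0.91), against 2.72 (SE 0.27). Nr4a1 there was further from 0, at -1.29 (SE 0.59), against -0.79 (SE 0.17). In intraabdominal fat Jun was at 1.78 (SE 0.81), against 2.05 (SE 0.33), and Fos at 0.57 (SE 1.01), against 1.60 (SE 0.43).

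Between the depots' adipocytes, 3 of the 13 probe sets were called and all 3 were lower in subcutaneous adipocytes: Nr4a1, Fosl1 and Egr2. Of all probe sets, 8.13% were called and 4.16% were lower. Nr4a1 fell by 1.63 ± 0.17 on the log2 scale (SE), 3.09-fold, with a limma adjusted p of 5.69e-05. Fosl1 was 2.94-fold lower (log2 difference -1.55, adjusted p = 0.000876). Egr2 was 1.69-fold lower (adjusted p = 0.0125), a call that was lost without intraabdominal adipocyte replicate 1 (-0.61 on the log2 scale, adjusted p = 0.0666) and with the actin ratio as a covariate (-0.35, adjusted p = 0.617), against -0.76 over all arrays. The ranges of these 3 genes did not overlap between the depots, and neither did those of Fosb, at -0.37 and not called (adjusted p = 0.178); for lower groups without overlap the share of all probe sets was 10.7%.

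Without intraabdominal adipocyte replicate 3, 8 probe sets were called between the depots' adipocytes, where 10.9% of all were. The same 3 were lower, and 5 of 4 genes were higher in subcutaneous adipocytes, where 6.33% of all were higher. Fos was then 3.52-fold higher (adjusted p = 9.85e-06), against a difference of 1.04 on the log2 scale with an interval from 0.12 to 1.97 over all arrays (adjusted p = 0.151). Egr1 was 2.04-fold higher (adjusted p = 0.00387), Junb 1.88-fold and 1.62-fold on its 2 probe sets (adjusted p = 0.000712 and 0.0473) and Zfp36 1.46-fold (adjusted p = 0.0458). The 2 remaining intraabdominal arrays read close together for these genes, at 12310 and 12002 for Fos and 12897 and 12222 for Egr1. For all 5 of these probe sets the array left out read within or above the range of the subcutaneous adipocytes. That array was picked out by its values for these same genes. The 5 higher calls follow that choice and rest on 2 intraabdominal arrays. Without that array the dimmer Fos probe set, 161716_at, was not called (log2 difference 0.84, limma adjusted p = 0.203). The Egr1 probe set too dim to test, 161802_i_at, went the other way. It read between 28.8 and 54.7 in subcutaneous adipocytes, against 82.2 and 121 on the 2 remaining intraabdominal arrays.

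Between the depots' stromo-vascular cells, 2 of the 13 probe sets were called, where 12.9% of all were. Both belong to the Fos family and they went in opposite directions. Fos, on its brighter probe set, was 3.43-fold lower in subcutaneous cells (log2 difference -1.78, limma adjusted p = 0.0126). It read 1755 to 2289 there, against 6193 to 7445 in intraabdominal cells. The dimmer Fos probe set, 161716_at, was not called between these cells, and its ranges overlapped (log2 difference 0.04, limma adjusted p = 0.97). Fosl1 was 2.26-fold higher in subcutaneous cells, at 3063 to 3548, against 1345 to 1553 in intraabdominal cells (1.18, adjusted p = 0.00271). These 6 arrays do not include the adipocyte array that stood apart, but share the fit's estimate of spread with it. Without it the adjusted p of Fos was 1.51e-06, and Jun (1.70-fold higher, adjusted p = 0.00884) and Egr1 (1.46-fold higher, adjusted p = 0.0451) were called too, against 0.168 and 0.19 with it. For Fosb, Zfp36 and Atf3 the depots' stromo-vascular cells differed by at most 0.10 on the log2 scale, with 95% intervals between -0.58 and 0.57.

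**Figure D3:**
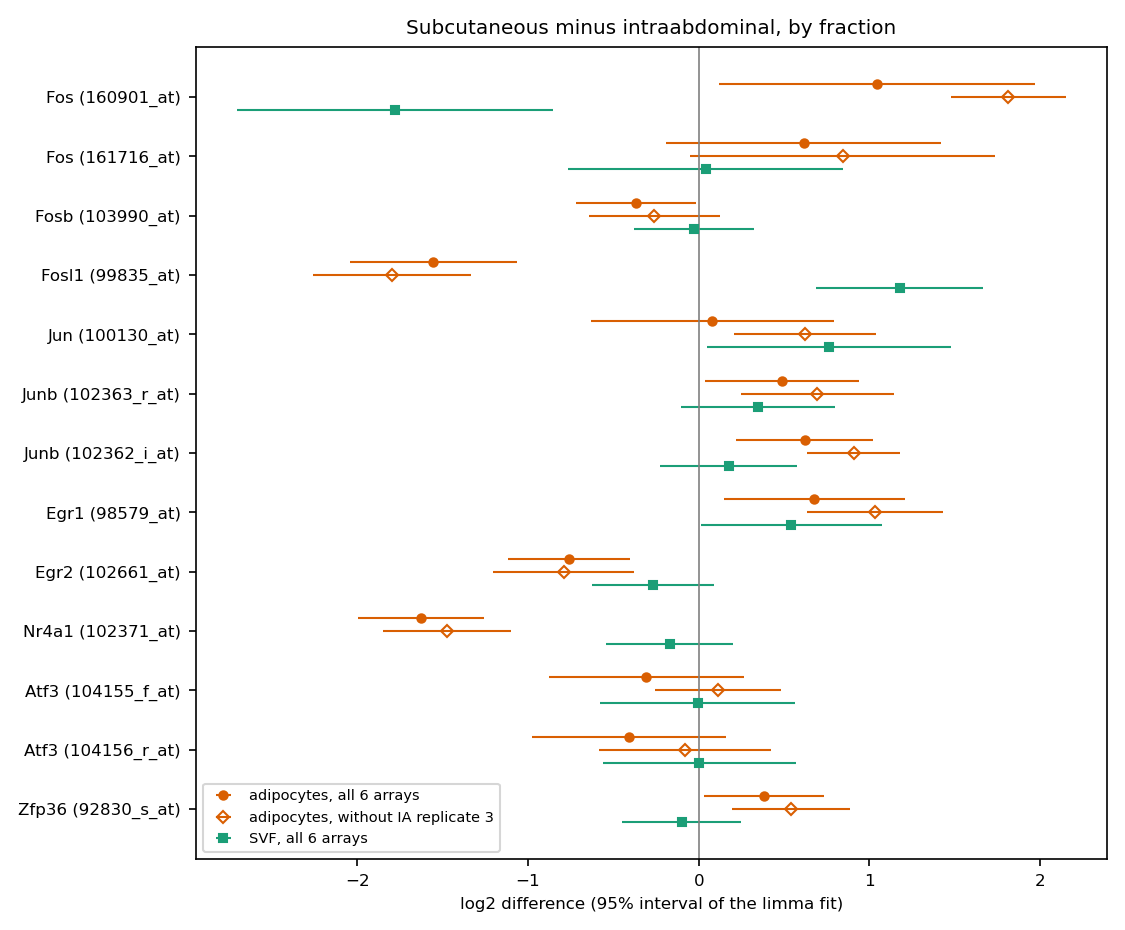
Log2 difference of subcutaneous minus intraabdominal fat for the 13 tested probe sets, with the 95% interval of the limma fit, in adipocytes over all arrays (filled circles), in adipocytes without intraabdominal replicate 3 (open diamonds) and in stromo-vascular cells (squares). The brighter Fos probe set lies at -1.78 in stromo-vascular cells and right of 0 in adipocytes, at 1.04 and at 1.81 without the array. The dimmer Fos probe set, 161716_at, lies at 0.04 in stromo-vascular cells. Fosl1 lies at -1.55 in adipocytes and 1.18 in stromo-vascular cells.

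The interaction asks whether the depot difference in adipocytes differs from that in stromo-vascular cells. It was called for 3 of the 13 probe sets, where 8.43% of all were: Fos (2.82 ± 0.61 on the log2 scale, SE; limma adjusted p = 0.00896), Fosl1 (-2.73 ± 0.32, adjusted p = 8.4e-05) and Nr4a1 (-1.46 ± 0.24, adjusted p = 0.00153). By group means, Fos on its brighter probe set was highest in subcutaneous adipocytes and lowest in subcutaneous stromo-vascular cells, and Fosl1 the reverse. Without intraabdominal adipocyte replicate 3 the interaction of Fos was 3.59 (adjusted p = 8.06e-07), that of Fosl1 -2.97 and that of Nr4a1 -1.30, and Junb on 102362_i_at was added (0.73, adjusted p = 0.0142), making 4, where 9.43% of all were called. With the actin ratio as a covariate the interaction of Fos was not called (2.27, adjusted p = 0.139). On the dimmer Fos probe set, 161716_at, it was not called over all arrays (0.57, adjusted p = 0.599).

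Likeness between profiles was measured as the root mean square difference of log2 values over the 12 arrays, each probe set centred on its own mean. Among the 10 genes, Jun with Junb and Atf3 with Zfp36 were closest, both at 0.48, and Fosb with Fosl1 were farthest apart, at 3.72. Of 7794 other tested probe sets with 1 gene symbol, those most like Fos were Acyp2 (0.68), Pdk4 (0.69), Tpp2 (0.72), Etfb (0.73) and Ptprd (0.74). Pdk4, a kinase that holds pyruvate dehydrogenase off, averaged 19659 in subcutaneous and 6831 in intraabdominal adipocytes, against 770 and 1012 in the stromo-vascular cells of the same depots. Those most like Fosl1 were Lima1 (0.41), Maoa (0.41), Rpap3 (0.41), Srxn1 (0.41) and Icam1 (0.43). Icam1, an adhesion molecule, averaged 657 in subcutaneous and 1334 in intraabdominal adipocytes, against 4168 and 2455 in the stromo-vascular cells.

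The rest of the pathway was read from lists of other genes, with 1 probe set a gene. Of 16 tested partners and related bZIP factors, 5 were higher and 8 lower in adipocytes in each depot, where 23.5% and 22.4% of all probe sets were higher and 29.4% and 29% lower in subcutaneous and intraabdominal fat. Jund, the Jun protein present at rest, read 110252, 132391 and 118145 in intraabdominal adipocytes, against 23561, 23688 and 33018 in intraabdominal stromo-vascular cells, 4.53-fold higher (limma adjusted p = 4.4e-06). Cebpb, a bZIP factor of early fat cell differentiation, averaged 9093 in subcutaneous adipocytes, against 21344 in subcutaneous stromo-vascular cells, and was 2.34-fold lower (adjusted p = 1.14e-06). Without the array that stood apart the intraabdominal counts were 4 higher and 5 lower.

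Of 13 tested genes listed as targets of AP-1, 0 were higher and 10 lower in adipocytes in each depot, where 29.4% and 29% of all probe sets were lower, with medians of -1.87 in both; without the array the intraabdominal counts were the same. Mmp3, a matrix protease, averaged 622 in subcutaneous and 180 in intraabdominal adipocytes, against 68072 and 14274 in the stromo-vascular cells. Timp1, an inhibitor of such proteases, averaged 2435 and 2356 in adipocytes, against 70122 and 68197 in stromo-vascular cells. Lox, which cross-links collagen, and Hmox1, which breaks down heme, were lower by 46.1-fold and 10.5-fold in subcutaneous adipocytes. The summed preadipocyte and fibroblast markers given above were also lower in adipocytes, though 2 of those 9 genes were called higher in each depot. The part of cell mixture in the values of the AP-1 targets was not tested.

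Among 32 other immediate early genes, subcutaneous adipocytes had 15 higher and 13 lower, and intraabdominal adipocytes 14 higher and 9 lower (12 and 10 without the array), where 23.5% of all probe sets were higher and 29.4% lower in subcutaneous and 22.4% and 29% in intraabdominal fat. The medians were 0.53 and 0.23, beside -0.04 and -0.11 for all probe sets. Feedback inhibitors of NF-kB were among the higher ones: Nfkbia averaged 31465 and 29433 in subcutaneous and intraabdominal adipocytes, against 3902 and 2124 in the stromo-vascular cells, and Tnfaip3 averaged 1545 and 2540 in adipocytes, against 56.7 and 54.1 in stromo-vascular cells. Ccn2, a matrix-associated growth factor induced by serum, averaged 87.4 and 121 in adipocytes, against 61575 and 61705 in stromo-vascular cells. Between the depots' adipocytes 4 were higher and 2 lower in subcutaneous fat, where 8.13% of all probe sets were called. Socs3, the inhibitor of cytokine signalling, averaged 17509 there, against 3606 in intraabdominal adipocytes (4.86-fold higher, limma adjusted p = 4.57e-07), and Klf6, a zinc finger factor, averaged 6530 there, against 12902 in intraabdominal adipocytes.

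Of 12 relatives and known target messages of tristetraprolin, 3 rose and 6 fell in subcutaneous adipocytes, and 4 rose and 4 fell in intraabdominal adipocytes (4 and 4 without the array). For this and the lists that follow in the paragraph, 23.5% of all probe sets rose and 29.4% fell in subcutaneous, and 22.4% and 29% in intraabdominal adipocytes. The chemokine Cxcl1 averaged 66383 and 67311 in subcutaneous and intraabdominal adipocytes, against 2703 and 1364 in the stromo-vascular cells. Ptgs2, the inducible cyclooxygenase, averaged 295 and 238 in adipocytes, against 2443 and 3572 in stromo-vascular cells. Of 11 genes of the MAP kinase pathway, 2 were higher and 6 lower in subcutaneous, and 2 higher and 5 lower in intraabdominal adipocytes (4 lower without the array). A list of 6 genes around serum response held the ternary complex factors Elk1, Elk3 and Elk4, with Mrtfa, Creb1 and Stat3. Serum response factor itself was not among those tested. Of the 6, 0 were higher in adipocytes of either depot, and 1 and 3 were lower (1 higher and 2 lower in intraabdominal fat without the array). Creb1, lower in intraabdominal adipocytes, is also in the list of bZIP factors. Mrtfa, a coactivator of serum response factor, averaged 775 in stromo-vascular cells of subcutaneous and 3735 in those of intraabdominal fat, 4.67-fold lower in subcutaneous cells (limma adjusted p = 4.81e-05). Nab2, a corepressor of Egr factors, was lower in adipocytes of both depots, by 4.09-fold and 4.83-fold. Ptgs2, Vegfa and other genes stood in more than 1 of these lists, so the counts are not independent.

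Among 11 heat shock genes, subcutaneous adipocytes had 2 higher and 2 lower, and intraabdominal adipocytes 3 higher and 2 lower (3 and 4 without the array). Of all probe sets 23.5% and 22.4% were higher and 29.4% and 29% lower. Hspa1a was 31.6-fold higher in subcutaneous adipocytes (limma adjusted p = 0.000239). Between the depots' adipocytes it was not called over all arrays; without intraabdominal replicate 3 its log2 difference was 3.67 (adjusted p = 7.61e-07) and Hspa1b and Hsph1 were called higher in subcutaneous adipocytes too, 3 of 11 genes in all.

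**Figure D4:**
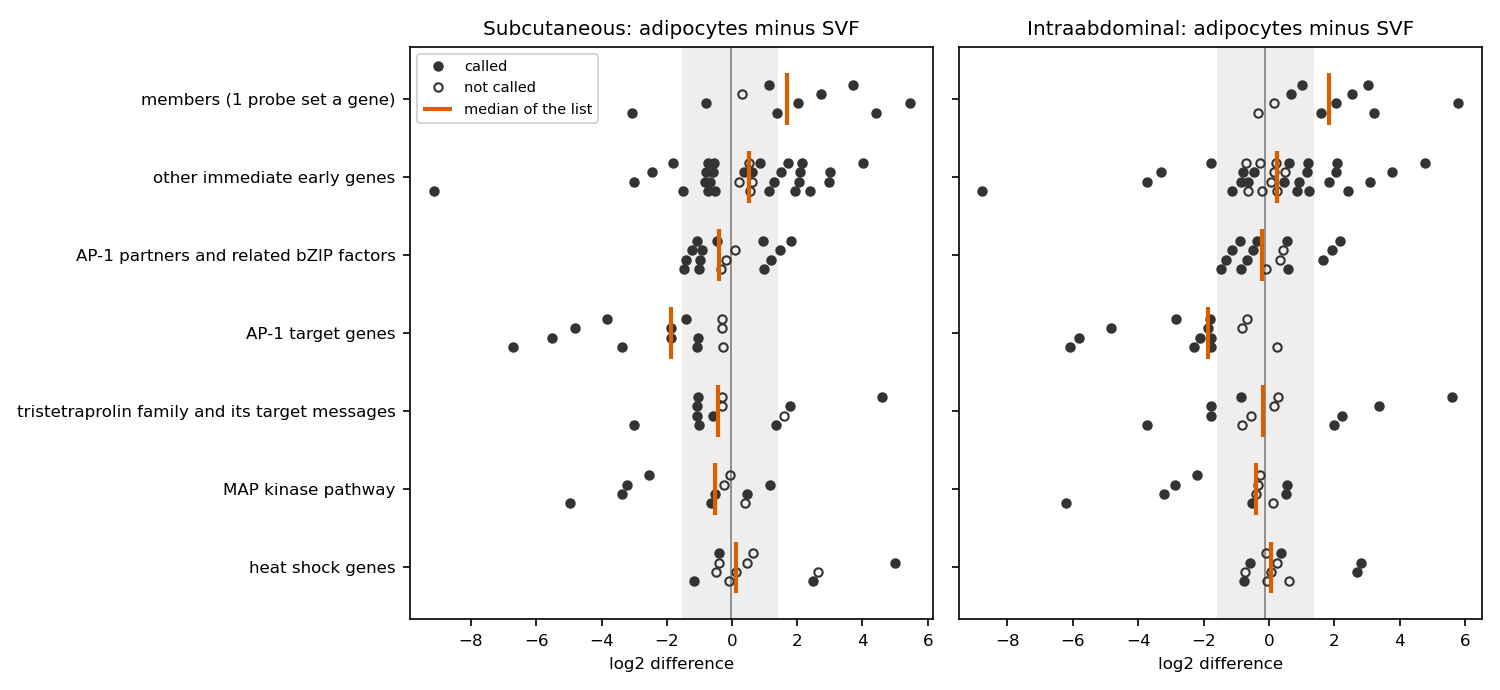
Log2 difference of adipocytes minus stromo-vascular cells in subcutaneous (left) and intraabdominal fat (right) for the 10 genes and for lists of related genes, 1 probe set a gene; filled points were called, open points were not, bars are list medians, the grey band runs from the lowest to the highest decile of all probe sets tested and the thin line is their median. Most AP-1 target genes lie left of 0, with medians of -1.87, while most of the 10 genes lie right of it.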

How the data were processed

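The 12 arrays were Affymetrix expression arrays. The authors deposited 1 linear intensity for each probe set on each array, from MAS5 per the submitters' processing notes, with version and detection calls not given in the sources used here. Their 2% trimmed means agreed within a ratio of 1.00017, so they were taken as deposited. For labelling, 15 µg of RNA was used per array, per the labels. The labels leave unsaid whether replicates came from different pools, so p-values measure only the spread between these samples, and 3 arrays a group limit the precision (median SE 0.241 on the log2 scale).

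The 66 control probe sets were left out. Of the remaining 12422, 10833 had 1 gene symbol in the platform annotation, 396 several and 1193 none, and 8251 genes were named. Log2 of the signal plus 40.09 (the 10th percentile of all values) was fitted with limma 3.58.1 in R 4.3.3, with 4 group means over all 12 arrays and eBayes with trend. The dimmest 30% of probe sets by mean log2 value were not tested, and Benjamini-Hochberg adjustment ran over the 8695 tested. The steps were tested on simulated data. Alternatives were other pseudocounts, no filter, median centring, quantile normalization, array weights, a replicate block, the actin 3′ to 5′ ratio as a covariate, each fit on 2 groups, and each array left out. The members and lists were chosen with earlier results of these data known. All member probe sets are described; of other lists, at most 4 called genes a contrast with the smallest p could be named. The markers Dpt, Thy1, C1qa and Cd68 were given as examples of opposite directions, outside that rule. Hspa1b, Hsph1, Bnc1 and Cd79a were named after their values were seen. The upstream sequences are RefSeq's.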

Additional observations from a re-analysis of the deposited data

Results flagged for a closer look

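These 3 genes stood out because the depot difference in adipocytes differed from that in stromo-vascular cells by the test of the interaction itself. For Fos (160901_at) the interaction was 2.82 on the log2 scale (limma adjusted p = 0.00896): subcutaneous minus intraabdominal was 1.04 in adipocytes, not called, and -1.78 in stromo-vascular cells. Without intraabdominal adipocyte replicate 3 the interaction of Fos was 3.59 (adjusted p = 8.06e-07). With the actin ratio as a covariate that of Fos was not called (2.27, adjusted p = 0.139). On the dimmer Fos probe set, 161716_at, it was not called either (0.57, adjusted p = 0.599). For Fosl1 (99835_at) it was -2.73 (adjusted p = 8.4e-05), from -1.55 in adipocytes and 1.18 in stromo-vascular cells. For Nr4a1 (102371_at) it was -1.46 (adjusted p = 0.00153), from -1.63 in adipocytes and -0.17 in stromo-vascular cells.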

How the results depend on the processing

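Over the alternatives, 1323 single values stayed on their side of the threshold, 39 of them, none called, with the sign turned; 15 passed it and 14 no longer did, and 0 called values reversed. Leaving out each of the 12 arrays in turn gave between 2 and 8 called member probe sets for the depots' adipocytes (2 without intraabdominal adipocyte replicate 1, 8 without replicate 3), 2 to 4 for the depots' stromo-vascular cells, 11 for subcutaneous fractions, 10 for intraabdominal fractions and 3 to 4 for the interaction. The stromo-vascular depot count was also 4 with array weights and 4 when only its 2 groups were fitted. With the actin ratio as a covariate it was 4 in place of 11 in subcutaneous fractions and 6 in place of 10 in intraabdominal fractions. Over all probe sets that covariate gave 97 calls in place of 707 between the depots' adipocytes, 1058 in place of 4594 and 2173 in place of 4462 between fractions, and 403 in place of 733 for the interaction. Between the depots' adipocytes the count of all calls was 297 with only those groups, and 365 to 949 with an array left out. Between stromo-vascular cells, in place of 1125, it was 1952 with array weights and 1690 with only those groups. With an array left out it was 765 to 1273 between stromo-vascular cells and 538 to 820 for the interaction. Between fractions it was then 3957 to 4660 in subcutaneous and 4001 to 4647 in intraabdominal fat. Centring each array on its median moved the median of all differences between the depots' adipocytes to -0.15 from 0.07, and 17.95% of calls were then higher in subcutaneous fat in place of 48.8%; Fosb was then called lower there (-0.59, limma adjusted p = 0.0235), and no member changed direction among called values. The same centring made 52.3% of calls higher in place of 43.6% in intraabdominal adipocytes against stromo-vascular cells and 33% in place of 46.2% in the interaction. Deviations of same-numbered arrays correlated between -0.09 and 0.11, over 0.1 in 1 of 12 pairs, so no shared deviation by replicate number was seen. This cannot tell whether same-numbered arrays came from the same mice. With the replicate block the member counts were 3, 2, 11, 10 and 3, as without it. Over all probe sets the counts with the block were 595, 1054, 4506, 4406 and 645. Low signal over background limits 161716_at of Fos, which was not called in the 5 contrasts. It also limits the probe sets of Egr1 and Atf3 that were too dim to test. With no filter on dim probe sets, 3 in place of 2 member probe sets were lower in subcutaneous adipocytes than in stromo-vascular cells. In that fit 2549 of all probe sets were lower. The added member probe set was 161802_i_at of Egr1, at -1.49 on the log2 scale.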
